A study of Homo sapiens with 6 samples.

Results

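The subject is the glycosyltransferase genes of mucin-type O-glycan synthesis, sialylation, fucosylation, chain extension and N-glycan branching, in the sublines PC-3/Mc and PC-3/S. The members are all probe sets whose platform annotation gives a single symbol that begins with GALNT and a digit, ST3GAL, ST6GAL, ST8SIA, FUT and a digit, B3GNT, B3GALT, B4GALT, MGAT and a digit from 1 to 5, or GCNT. The rule took 202 of 54675 probe sets, which stand for 86 of 19775 genes, and it used no expression value. The members were nonetheless chosen with earlier results of these data known. Both sublines come from PC-3, an established human prostate carcinoma line from a bone metastasis. Each was measured on 3 one-colour Affymetrix arrays of total RNA from cells harvested before confluence. The labels name no treatment, transgene or allele for either subline and do not say how the sublines were derived; they term the replicates biological without saying whether these were separate cultures, so the p-values reflect only the spread among these arrays, which may be technical. The series concerns the epithelial-mesenchymal transition and tumor-initiating traits, and its single contrast is PC-3/Mc against PC-3/S.

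Glycosyltransferases of the Golgi build the sugar chains of cell-surface and secreted proteins and lipids one sugar at a time. Mucin-type O-glycans start when a GALNT enzyme puts N-acetylgalactosamine (GalNAc) on serine or threonine; C1GALT1 and its chaperone C1GALT1C1 then make core 1, and GCNT enzymes add the branch that makes core 2. N-glycans are trimmed by mannosidases and then given antennae by the MGAT enzymes in turn. B3GNT and B4GALT enzymes extend chains on both kinds of glycan, and sialyltransferases and fucosyltransferases cap them. The finished ends are read by lectins such as selectins, siglecs and galectins, and changes in branching and capping are a long-known feature of epithelial tumors.

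Levels are the authors' deposited log2 expression values, and a difference is the PC-3/Mc mean less the PC-3/S mean, in log2 units, with its standard error (SE). Means carry the SD over n = 3 arrays per line. Where a gene has several probe sets, the brightest one on average stands for it unless another is named, and a level is compared only between lines, never between genes. Calls are those with an adjusted p under 0.05 in limma (Benjamini-Hochberg, 19775 genes). Detection calls were not used here. Readings up to 5.18, the highest of CTNNA1, which is known to be deleted in PC-3, may be background. That reading rests on a single gene, so background on other probe sets may lie higher. A fold is a lower bound against that reading where the dimmer line lay at or under it. Genes with both line means below 5.98, the median level over genes, are termed dim.

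The 6 arrays had medians from 4.98 to 5.09 and correlated at 0.995 to 0.997 within a line and 0.949 to 0.953 between lines. Of 8 genes expected in PC-3 cells (keratins, EPCAM, cadherins and vimentin) 4 were higher in PC-3/Mc, 3 lower and 1 not called. The keratin KRT18 read 12.48 ± 0.13 in PC-3/Mc against 11.32 ± 0.01 in PC-3/S. EPCAM differed most, at 11.88 ± 0.19 in PC-3/Mc against 6.44 ± 0.22 in PC-3/S. CDH1 read 7.67 ± 0.19 in PC-3/Mc and lay under 5.18 on every PC-3/S array (4.0 ± 0.08). KRT8 was higher too (1.03), and KRT7 (-1.54), KRT19 (-0.48) and VIM (-0.36) were lower. The summed linear signal of the 8 was 21544 to 22534 in PC-3/Mc against 18160 to 18419 in PC-3/S. Of 6 prostate luminal markers measured 1 was higher and 1 lower, with FOLH1 and ACP3 at or under 5.18 in both lines and KLK3 at 6.39 ± 0.33 in PC-3/Mc against 6.73 ± 0.12 in PC-3/S and not called. Markers of leukocytes and endothelium were mostly low, and those of fibroblasts less so. Of 6 leukocyte markers 5 lay at or under 5.18 in both lines, PTPRC among them. CD79A lay above it, at 5.76 ± 0.22 in PC-3/Mc against 6.14 ± 0.15 in PC-3/S, and was lower by 0.38. Among 5 endothelial markers 3 lay at or under 5.18 in both lines. PECAM1 was higher by 0.60, at 7.18 ± 0.04 in PC-3/Mc against 6.58 ± 0.09 in PC-3/S. Of 7 fibroblast markers 3 were higher, led by COL1A2 (4.12), and 3 lower, led by COL3A1 (-1.93). Above 5.18 in 1 line or both lay 5 of them. COL1A1 read 7.39 ± 0.15 in PC-3/Mc against 7.67 ± 0.05 in PC-3/S, and COL1A2 8.48 ± 0.15 against 4.36 ± 0.23. The summed linear signal of the fibroblast markers was 682 to 722 in PC-3/Mc against 400.2 to 429 in PC-3/S, that of the endothelial markers 238 to 258 and 189 to 218, and that of the leukocyte markers 141 to 179 and 152 to 182. Their part in the differences below was not tested.

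Of the 86 genes 43 were called, 25 higher and 18 lower in PC-3/Mc. That share of 50% lies close to the 45.9% of all 19775 genes that were called (23.2% higher and 22.7% lower). Calls of at least 2-fold numbered 19, 14 higher and 5 lower, or 22.1% of members where 11.5% of all genes passed (5.88% higher and 5.58% lower). These counts use the measured differences with no floor; against 5.18 the lower bound was under 2-fold for FUT9 (1.01), B3GNT7 (1.72) and GCNT1 (1.88). Among genes above 5.18 in 1 line or both, 66.1% of 62 members were called where 64.2% of all such genes were. Calls of at least 2-fold made up 30.6% of these members and 17.3% of all such genes. Since the members were chosen with earlier results of these data known, these shares are descriptions and not a test. Arrays of one line all stood apart from those of the other for 46 members, or 53.5%, where 53.1% of all genes did so. The median difference over the members was -0.03, the same as over all genes (-0.03); with arrays centred on their medians both became 0.02. Of the 86 members 41 were dim in both lines, 24 of them at or under 5.18 in both, and 35 of the 41 were not called. The 8 noncoding or pseudogene members (B3GALT5-AS1, FUT8-AS1, GALNT7-DT, GCNT1P1, GCNT7, MGAT4EP, ST3GAL3-AS1 and ST8SIA6-AS1) were dim and had 0 calls in limma, with 1, MGAT4EP, at an unadjusted p under 0.05 (0.19 ± 0.07) and the same one called by least squares without moderation.

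**Figure D1:**
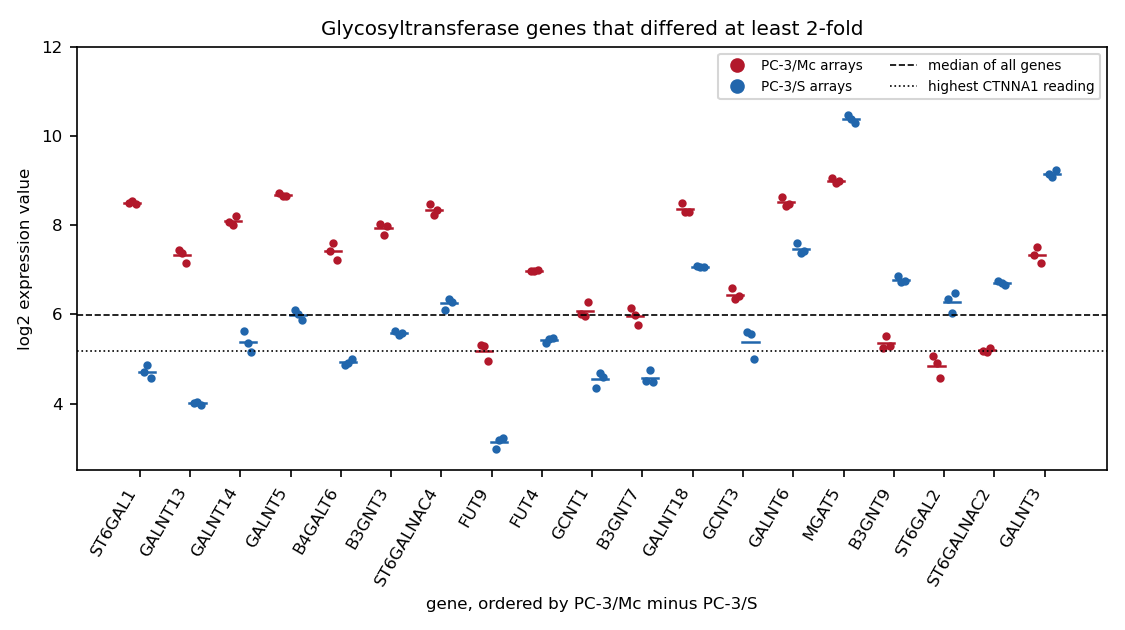
Log2 expression value on each array for the 19 glycosyltransferase genes that were called with at least 2-fold difference, ordered from higher to lower in PC-3/Mc; points are arrays, short bars are means, and dashed and dotted lines mark the median of all genes (5.98) and the highest CTNNA1 reading (5.18). For none of the 19 do the arrays of the lines overlap; for 7 of them the dimmer line lies under the dotted line.

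**Figure D2:**
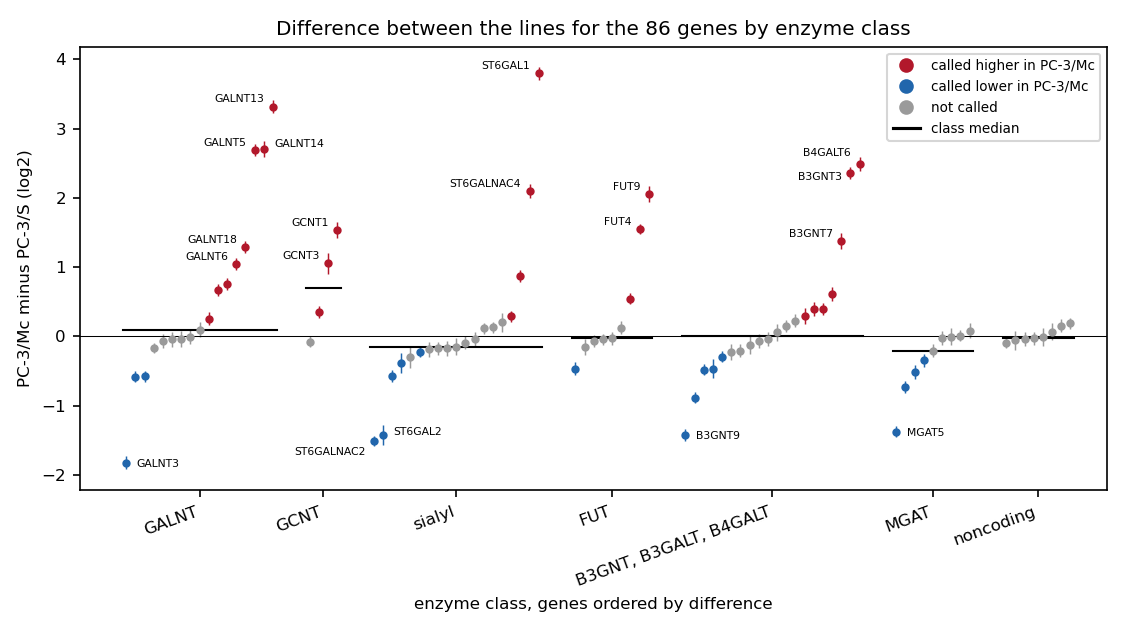
Difference between the lines (log2, points with SE bars) for the 86 genes in 7 classes, ordered by difference within each; black bars are class medians and genes with at least 2-fold difference are named. Differences spread both ways in the GALNT, sialyltransferase and B3GNT, B3GALT and B4GALT classes, the 3 GCNT calls are higher and the 4 MGAT calls are lower in PC-3/Mc.

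Among the members that reached the median of all genes in 1 line or both, the largest differences upward were those of ST6GAL1 and GALNT13, and the largest downward were those of GALNT3 and ST6GALNAC2. RefSeq promoter windows of GRCh38.p14, which cover each gene's annotated start and mostly the bases before it, were found for 63 of the 86 members. They are shown for ST6GAL1 (chr3:186930276-186930575, plus strand), GALNT13 (chr2:153068043-153068342, plus strand) and GALNT3 (chr2:165794198-165794497, minus strand), so that the sequence before the genes that differed most can be read. Capitals mark GGGCGG or its complement CCGCCC (the GC box) and CAGGTG or its complement CACCTG (an E-box of the kind that ZEB and Snail factors bind).
ST6GAL1: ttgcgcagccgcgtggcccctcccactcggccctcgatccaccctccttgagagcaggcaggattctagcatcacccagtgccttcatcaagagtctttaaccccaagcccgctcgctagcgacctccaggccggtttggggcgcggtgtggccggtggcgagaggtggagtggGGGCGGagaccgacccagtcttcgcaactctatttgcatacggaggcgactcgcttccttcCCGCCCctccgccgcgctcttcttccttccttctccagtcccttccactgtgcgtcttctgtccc
GALNT13: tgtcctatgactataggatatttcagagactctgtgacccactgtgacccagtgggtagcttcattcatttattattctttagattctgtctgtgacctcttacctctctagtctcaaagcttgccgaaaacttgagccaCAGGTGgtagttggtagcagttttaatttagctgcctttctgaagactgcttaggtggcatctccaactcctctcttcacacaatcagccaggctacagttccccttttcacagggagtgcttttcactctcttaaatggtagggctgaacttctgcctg
GALNT3: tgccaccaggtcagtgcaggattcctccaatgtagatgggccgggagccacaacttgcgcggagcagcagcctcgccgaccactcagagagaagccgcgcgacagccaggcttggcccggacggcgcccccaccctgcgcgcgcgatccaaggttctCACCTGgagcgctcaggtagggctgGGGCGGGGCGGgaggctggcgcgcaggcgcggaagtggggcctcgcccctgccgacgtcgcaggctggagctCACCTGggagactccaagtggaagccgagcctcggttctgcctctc
The ST6GAL1 window held 2 GC boxes in a sequence of 64% G and C, and neither CAGGTG nor CACCTG. That of GALNT13, at 45% G and C, held 1 CAGGTG and no GC box. In the GALNT3 window, at 70% G and C, 2 overlapping GC boxes and 2 copies of CACCTG were found. Searched on both strands, GGGCGG was in 61.9% of the 63 member windows and 44.6% of all 27305 windows, CAGGTG or CACCTG in 19.0% and 20.6%, CACGTG (the E-box that MYC binds) in 9.52% and 7.43%, and TATAAA in 1.59% and 12%. Of the members with at least 2-fold difference, CAGGTG or CACCTG was in 3 of 10 windows of those higher and 1 of 3 of those lower in PC-3/Mc, and CACGTG in none of the 13. These matches are descriptions of letters, and no binding was measured.

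GalNAc transferases moved both ways, with more members higher in PC-3/Mc. Of 17 genes 8 were higher, 3 lower and 6 not called, and of the 6 with at least 2-fold difference 5 were higher. The called share was 64.7%, beside 45.9% of all genes and 64.2% of all genes above 5.18 in 1 line or both. Calls of at least 2-fold made up 35.3% of the class. They made up 11.5% of all genes and 17.3% of all genes above 5.18 in 1 line or both. The class median was 0.10 (0.15 with quantile normalization), beside -0.03 over all genes. GALNT13, GALNT14 and GALNT5 led, each more than 4-fold higher.

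GALNT13, an enzyme known from neural tissue, read 7.44, 7.37 and 7.16 in PC-3/Mc against 4.01, 4.03 and 3.98 in PC-3/S. The PC-3/S arrays all lay under 5.18, so that the gene was at least 4.43-fold higher (3.32 ± 0.09, adjusted p = 4.7e-10); its other probe sets differed by 1.77 and 1.58 in the same direction. GALNT14, linked to O-glycosylation of death receptors, read 8.07, 8.01 and 8.21 in PC-3/Mc against 5.63, 5.36 and 5.16 in PC-3/S. It was 6.54-fold higher (2.71 ± 0.12, adjusted p = 1.7e-08), on its single probe set. PC-3/S replicate 3 lay under 5.18 and the PC-3/S mean, 5.38 ± 0.24, not far above it, so the size of this difference is uncertain. For GALNT5 the values were 8.74, 8.66 and 8.66 in PC-3/Mc against 6.10, 6.01 and 5.87 in PC-3/S, a 6.47-fold difference (2.69 ± 0.08, adjusted p = 1.3e-09). All 5 GALNT5 probe sets were called higher, by 0.35 to 3.56, and the smallest differences were on probe sets at or under 5.18 in both lines. In each of these genes every PC-3/Mc array stood above every PC-3/S array by over 2 log2 units.

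GALNT18 read 8.50, 8.29 and 8.30 in PC-3/Mc against 7.08, 7.07 and 7.07 in PC-3/S, with the PC-3/S arrays within 0.01 of each other. It was 2.45-fold higher (1.29 ± 0.08, adjusted p = 3.5e-07); its other probe set, at 4.82 and 4.76, was not called (0.06 ± 0.14). GALNT6, which glycosylates fibronectin among other substrates, read 8.63, 8.44 and 8.48 in PC-3/Mc against 7.60, 7.39 and 7.42 in PC-3/S and was 2.06-fold higher (1.04 ± 0.09, adjusted p = 3.2e-06). Its other probe set gave the same picture, with a difference of 1.08 ± 0.10. Smaller upward differences were those of GALNT7, a glycopeptide-preferring enzyme that follows other GALNTs (0.76 ± 0.09), and of GALNT1, one of the most widely expressed family members, at 9.49 ± 0.10 in PC-3/Mc against 8.82 ± 0.07 in PC-3/S (0.67 ± 0.08, adjusted p = 5.6e-05). GALNT12 was higher by 0.26 ± 0.09 (adjusted p = 0.0340), a call lost without replicate 1 or 2 of either line (0.22 to 0.25, adjusted p = 0.0859 to 0.135) with quantile normalization (0.19, adjusted p = 0.0602) and without variance moderation (adjusted p = 0.0783).

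GALNT3, which glycosylates the phosphate hormone FGF23, went the other way. It read 7.33, 7.51 and 7.16 in PC-3/Mc against 9.15, 9.09 and 9.23 in PC-3/S, and was 3.54-fold lower in PC-3/Mc (-1.82 ± 0.10, adjusted p = 9.3e-08). Its other probe set was at 4.30 and 4.35 and was not called (-0.05 ± 0.10). GALNT3, GALNT5, GALNT13 and GALNT14 all lie on chromosome 2 in RefSeq, so the largest differences of the class in both directions are on that chromosome. Of the other members there, B3GNT7 was higher (1.38) and ST6GAL2 (-1.43), MGAT5 (-1.38) and B3GNT2 (-0.47) were lower. B3GALT1, MGAT4A and ST3GAL5, also on chromosome 2, were not called, and an effect of location was not tested. GALNT10 (-0.58 ± 0.08) and GALNT11, which acts on NOTCH1 (-0.58 ± 0.08), were lower as well; all 3 GALNT10 probe sets were called lower (-0.44 to -1.29). GALNT2, the other widely expressed member, was at 9.18 ± 0.03 in PC-3/Mc against 9.35 ± 0.06 in PC-3/S and not called (-0.17 ± 0.08, adjusted p = 0.0955), although its arrays did not overlap. With quantile normalization it was called lower (-0.26, adjusted p = 0.0130). The same held with genes under the 40th percentile of mean level left out (adjusted p = 0.0449). It also held with the trend and robust options of limma (adjusted p = 0.0417) and without variance moderation (0.0299). GALNT8, GALNT9, GALNT15, GALNT16 and GALNT17 were dim in both lines, with differences from -0.07 to 0.10, and not called.

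Of the 4 GCNT genes, which branch O-glycans and related chains, GCNT1, GCNT2 and GCNT3 were higher in PC-3/Mc and GCNT4 was not called, where 23.2% of all genes were higher. The median was 0.70; in limma 0 were lower, also at an unadjusted p under 0.05 and without moderation. GCNT1, the main core 2 enzyme, read 6.01, 5.96 and 6.28 in PC-3/Mc against 4.35, 4.69 and 4.59 in PC-3/S. With every PC-3/S array under 5.18 it was at least 1.88-fold higher (1.54 ± 0.11, adjusted p = 9.3e-07), and its other probe set differed by 1.06 ± 0.18. GCNT3, the mucin-type enzyme of core 2 and core 4, read 6.59, 6.34 and 6.41 in PC-3/Mc against 5.62, 5.56 and 5.0 in PC-3/S. It was 2.08-fold higher (1.05 ± 0.15, adjusted p = 1.4e-04), with PC-3/S replicate 3 the lowest of the arrays and under 5.18. With each array left out in turn the difference ran from 0.86 to 1.17, so 2-fold was not always reached. GCNT2, which makes the branched I antigen, differed by 0.36 ± 0.08 on the probe set with the highest mean and by 0.65 ± 0.10 on the other. GCNT4 lay at or under 5.18 in both lines and was not called (-0.08 ± 0.08).

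Transcripts of the core 1 step that precedes core 2 were lower: C1GALT1, which makes core 1, differed by -0.42 ± 0.13 (adjusted p = 0.0212), and its chaperone C1GALT1C1 by -0.37 ± 0.08 (adjusted p = 0.0033). Both genes fell short of 2-fold and were named outside the rule for listed genes. They belong to a list of 14 other O-glycan and glycolipid transferases, of which 1 was higher, 3 lower and 10 not called (median -0.09). B3GALNT2, an enzyme of alpha-dystroglycan glycans chosen after its value was seen, was the higher one (0.99 ± 0.11). Of 21 mucins and other O-glycan carriers 2 were higher, 1 lower and 18 not called (median -0.04). Calls made up 28.6% of the transferase list and 14.3% of the carriers, where 45.9% of all genes were called. The transmembrane mucin gene MUC13 read 8.25 ± 0.14 in PC-3/Mc against 6.17 ± 0.03 in PC-3/S, 4.23-fold higher, and the podocalyxin gene PODXL read 9.83 ± 0.03 in PC-3/Mc against 8.16 ± 0.06 in PC-3/S, 3.19-fold higher. MUC5B, the single lower one, was dim (-0.45). MUC1, chosen after its values were seen as the best-known carrier, was at 6.87 ± 0.04 in PC-3/Mc against 6.75 ± 0.06 in PC-3/S and not called (0.12 ± 0.08, adjusted p = 0.247). With probe sets named _x_at or _s_at set aside, the carriers gave 1 higher and 2 lower, and without PC-3/Mc replicate 3 they gave 3 lower.

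Sialyltransferases split between the lines, and ST6GAL1 showed the largest difference of all 86 genes. Of 19 genes 4 were higher, 5 lower and 10 not called, with a median of -0.15 beside -0.03 over all genes. The called share of 47.4% was close to the 45.9% of all genes, of which 23.2% were higher and 22.7% lower. The count of lower genes was 3 without PC-3/Mc replicate 2 and without PC-3/S replicate 2, since the calls of ST3GAL3 and ST8SIA3 were then lost.

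ST6GAL1, which caps the galactose of N-glycan antennae with sialic acid, read 8.51, 8.53 and 8.48 in PC-3/Mc against 4.70, 4.86 and 4.56 in PC-3/S. PC-3/S lay wholly under 5.18 and PC-3/Mc well above the median of all genes, so that the gene was at least 10.1-fold higher (3.80 ± 0.09, adjusted p = 1.7e-10). A dimmer probe set differed by 1.45 ± 0.11, and the third, at 3.53 and 3.58, was not called (-0.05 ± 0.10). The only other enzyme of this family, ST6GAL2, had the reverse order: it read 5.08, 4.92 and 4.56 in PC-3/Mc against 6.35, 6.02 and 6.48 in PC-3/S. ST6GAL2 was at least 2.15-fold lower in PC-3/Mc (-1.43 ± 0.15, adjusted p = 1.1e-05), and its second probe set differed by -0.61 ± 0.13. Genes outside the members were compared with ST6GAL1 by root mean square distance over the 6 arrays, after each gene's mean was subtracted. The 5 nearest were CCNA1 (0.057), PTCHD1 (0.10), TMEM45B (0.12), CDH1 (0.13) and DNAH12 (0.13). In that order they differed between the lines by 3.87, 3.72, 3.92, 3.67 and 3.60, beside 3.80 for ST6GAL1. With only these lines compared, the distance mainly picks genes whose difference is close in size to that of ST6GAL1. Co-expression with ST6GAL1 beyond the line difference was not tested.

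ST6GALNAC enzymes put sialic acid on the GalNAc at the base of O-glycans or on gangliosides. ST6GALNAC4, which adds the second sialic acid of disialyl core 1, read 8.47, 8.23 and 8.35 in PC-3/Mc against 6.11, 6.36 and 6.29 in PC-3/S. It was 4.28-fold higher (2.10 ± 0.10, adjusted p = 2.3e-08), and 2 more of its probe sets rose by 2.35 and 1.25; all 3 have names ending in _s_at or _x_at, and the remaining one, under 5.18 in both lines, differed by -0.02 ± 0.08. ST6GALNAC2, active on core 1 and its GalNAc, read 5.19, 5.15 and 5.24 in PC-3/Mc against 6.75, 6.71 and 6.66 in PC-3/S. It was 2.85-fold lower (-1.51 ± 0.08, adjusted p = 4.8e-08) on its single probe set. Its PC-3/Mc arrays lay about the 5.18 below which readings may be background, so the size of this difference is uncertain. ST6GALNAC1, the sialyl-Tn synthase, lay at or under 5.18 in both lines (4.81 ± 0.09 in PC-3/Mc against 4.53 ± 0.06 in PC-3/S); its call as higher (0.29 ± 0.08, adjusted p = 0.0141) was lost without PC-3/S replicate 1 (0.25, adjusted p = 0.0678). ST6GALNAC3, ST6GALNAC5 and ST6GALNAC6 were not called, at differences from -0.17 to 0.12.

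In the ST3GAL family ST3GAL4, one of the enzymes that prepare sialyl Lewis x, read 7.03, 6.92 and 6.86 in PC-3/Mc against 6.13, 5.95 and 6.11 in PC-3/S and was 1.83-fold higher (0.87 ± 0.09, adjusted p = 8.8e-06). ST3GAL1, which caps core 1 and so competes with branching, read 9.50, 9.46 and 9.44 in PC-3/Mc against 10.18, 9.95 and 9.98 in PC-3/S. It was 1.48-fold lower in PC-3/Mc (-0.57 ± 0.08, adjusted p = 2.1e-04) on the brightest of 3 probe sets, all called lower (-0.47 to -0.57). No array of one line reached those of the other for either gene. ST3GAL3, which caps N-acetyllactosamine, differed by -0.39 ± 0.14 with overlapping arrays (adjusted p = 0.0442), and 4 of its 7 probe sets were called lower; its call was lost without replicate 1 or 2 of either line (-0.25 to -0.39, adjusted p = 0.0997 to 0.173) and without variance moderation (adjusted p = 0.210). ST3GAL2, the GM3 synthase gene ST3GAL5 and ST3GAL6 were not called; ST3GAL5 was called lower once PC-3/S replicate 1 was left out (-0.51, adjusted p = 0.0050). The ST8SIA family, which builds chains of sialic acid on gangliosides and on NCAM, was dim throughout. ST8SIA1, ST8SIA2, ST8SIA4 and ST8SIA5 were not called, and the GD3 synthase gene ST8SIA1 stood at 3.55 ± 0.02 in PC-3/Mc against 3.42 ± 0.07 in PC-3/S. ST8SIA3 was called lower at readings under 5.18 (-0.22 ± 0.08, adjusted p = 0.0433), a call that was kept only without PC-3/Mc replicate 1 among the alternatives that left out an array (adjusted p = 0.0643 to 0.179 in the other 5); 6 alternatives of other kinds ended it too. Without PC-3/Mc replicate 3, ST6GALNAC3 (-0.26, adjusted p = 0.0422) and ST8SIA5 (-0.28, adjusted p = 0.0396) became calls.

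The supply of sialic acid showed mixed differences. CMAS, which activates sialic acid to its CMP form, read 9.74, 9.85 and 9.57 in PC-3/Mc against 8.37, 8.34 and 8.46 in PC-3/S and was 2.51-fold higher (1.33 ± 0.09, adjusted p = 5.0e-07). GNE, the rate-limiting enzyme of sialic acid synthesis (0.43 ± 0.09), the synthase gene NANS (0.33 ± 0.08) and the Golgi CMP-sialic acid transporter gene SLC35A1 (0.37 ± 0.09) were higher, and the phosphatase gene NANP was lower (-0.46 ± 0.08). In the list of sugar nucleotide supply and transport 8 of 18 measured genes were higher, 6 lower and 4 not called, with a median of 0.14. The called share was 77.8%, beside 45.9% of all genes and 64.2% of all genes above 5.18 in 1 line or both. With probe sets named _x_at or _s_at set aside, 4 were higher. All but CMAS were named after their values were seen. On the removal side the lysosomal sialidase gene NEU1 was lower, at 7.95 ± 0.03 in PC-3/Mc against 9.15 ± 0.02 in PC-3/S (-1.20 ± 0.07, adjusted p = 2.1e-07). Of 10 measured genes in a list of sialidases, fucosidases and other removing enzymes 3 were higher, 2 lower and 5 not called (median 0.01). The called share was 50%, where 45.9% of all genes were called. The second lower gene, CASD1 (-0.35), is in that list although it codes for an enzyme that adds acetyl groups to sialic acid; it was not called without replicate 3 of either line or PC-3/Mc replicate 1, which left 1.

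FUT4 and FUT9, enzymes of Lewis x, and the core fucosyltransferase FUT8 were higher in PC-3/Mc, while most other members of the class were dim. Of 9 genes 3 were higher, 1 lower and 5 not called, with a median of -0.03 that became 0.02 with arrays centred and 0.12 with probe sets named _x_at or _s_at set aside. The called share of 44.4% was close to the 45.9% of all genes. FUT4, a Lewis x (CD15) enzyme of myeloid and many tumor cells, read 6.97, 6.98 and 6.99 in PC-3/Mc against 5.36, 5.46 and 5.46 in PC-3/S. It was 2.94-fold higher (1.55 ± 0.07, adjusted p = 3.7e-08), and its other probe set gave 1.21 ± 0.08. FUT9, the neural Lewis x enzyme, read 5.31, 5.30 and 4.96 in PC-3/Mc against 2.97, 3.18 and 3.24 in PC-3/S. It was called (2.06 ± 0.11, adjusted p = 1.0e-07), but PC-3/Mc itself lay at 5.19, so that the lower bound of the fold was 1.01; its other probe sets, at or under 5.18, were not called. FUT8, which puts fucose on the innermost sugar of N-glycans, read 9.51, 9.53 and 9.46 in PC-3/Mc against 9.04, 8.91 and 8.93 in PC-3/S and was 1.46-fold higher (0.54 ± 0.08, adjusted p = 1.4e-04); its other probe set was called higher too (0.59 ± 0.10).

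FUT6, a plasma and liver enzyme of sialyl Lewis x, was called lower (-0.47 ± 0.09, adjusted p = 0.0015). Of its 8 probe sets 4 were called lower and 4 not called. FUT3, FUT5 and FUT6 are near-identical neighbours on chromosome 19, 6 of the 8 FUT6 probe sets have names ending in _x_at, and the difference is uncertain for that reason; it was not called as the mean of the 8 (-0.18, adjusted p = 0.0607). The H antigen gene FUT1 was at 5.11 ± 0.13 in PC-3/Mc against 4.99 ± 0.11 in PC-3/S and the Lewis gene FUT3 at 4.59 ± 0.15 in PC-3/Mc against 4.62 ± 0.10 in PC-3/S, and neither was called; FUT2, FUT5 and FUT7 were dim and not called as well. Of the GDP-fucose route, GMDS (0.76 ± 0.08) and the Golgi transporter gene SLC35C1 (0.57 ± 0.09) were higher and GFUS, which follows GMDS, was lower (-0.84 ± 0.08); these were chosen after their values were seen.

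Enzymes that extend chains gave 7 genes higher, 5 lower and 8 not called of 20, with a median of 0.01 (0.03 with quantile normalization, -0.04 as means over all probe sets of each gene). The called share was 60%, beside 45.9% of all genes and 64.2% of all genes above 5.18 in 1 line or both. B4GALT6 and B3GNT3 stood furthest towards PC-3/Mc and B3GNT9 towards PC-3/S.

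B4GALT6, which with B4GALT5 makes lactosylceramide, the base of most glycolipids, read 7.42, 7.60 and 7.23 in PC-3/Mc against 4.87, 4.91 and 5.0 in PC-3/S. It was at least 4.73-fold higher (2.49 ± 0.10, adjusted p = 9.3e-09), with differences of 2.31 and 1.76 on 2 further probe sets and -0.27 ± 0.11, not called, on the remaining one under 5.18. Its partner B4GALT5 read 8.73, 8.91 and 8.73 in PC-3/Mc against 9.09, 9.03 and 9.13 in PC-3/S and was slightly lower (-0.29 ± 0.08, adjusted p = 0.0136), a call lost with arrays centred on their medians (-0.25, adjusted p = 0.0545). The transcript for the step before them was also lower: UGCG, the glucosylceramide synthase, read 8.51, 8.39 and 8.29 in PC-3/Mc against 9.67, 9.62 and 9.65 in PC-3/S and was 2.38-fold lower (-1.25 ± 0.08, adjusted p = 3.7e-07). B4GALT5 and B4GALT6 serve the same step and differed in opposite directions, so the transcripts give that step no single direction. Of the galactosyltransferases that extend N- and O-glycans, B4GALT4 (0.62 ± 0.10) and B4GALT2 (0.39 ± 0.10) were higher, the latter not without variance moderation (adjusted p = 0.0569). B4GALT1, the main enzyme of the family, was at 6.72 ± 0.08 in PC-3/Mc against 6.42 ± 0.22 in PC-3/S and its call as higher was marginal (0.29 ± 0.11, adjusted p = 0.0491), lost without replicate 2 of either line or PC-3/Mc replicate 1 (0.17 to 0.28, adjusted p = 0.123 to 0.203). It was also lost as the mean of its 6 probe sets (0.06, adjusted p = 0.481), with those named _x_at or _s_at set aside (0.13, adjusted p = 0.281) and without variance moderation (adjusted p = 0.172), and none of the 6 was called in the limma fit over probe sets. B4GALT3 (0.23 ± 0.09, adjusted p = 0.0563) and the proteoglycan linker enzyme B4GALT7 (-0.20 ± 0.10, adjusted p = 0.111) were not called. B4GALT3 was called without PC-3/S replicate 3 (0.29, adjusted p = 0.0324) and B4GALT7 without PC-3/Mc replicate 1 (-0.30, adjusted p = 0.0218). B4GALT3 was also called with genes under the 40th percentile of mean level left out (adjusted p = 0.0315). It was called with arrays centred (adjusted p = 0.0330) and with the trend and robust options of limma (0.0184) as well. Quantile normalization made B4GALT7 a call (-0.26, adjusted p = 0.0247).

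B3GNT3, which extends core 1 O-glycans and helps make L-selectin ligands, read 8.04, 7.78 and 7.99 in PC-3/Mc against 5.63, 5.53 and 5.57 in PC-3/S. It was 5.12-fold higher (2.36 ± 0.09, adjusted p = 5.3e-09), on its single probe set. B3GNT7, a keratan sulfate enzyme, read 6.14, 5.98 and 5.76 in PC-3/Mc against 4.50, 4.76 and 4.49 in PC-3/S, at least 1.72-fold higher (1.38 ± 0.11, adjusted p = 2.3e-06). Its probe sets disagreed: 2 were called higher, 1 was called lower (-0.36 ± 0.12) at readings under 5.18, and 1 was not called. B3GNT9 read 5.24, 5.51 and 5.29 in PC-3/Mc against 6.85, 6.73 and 6.74 in PC-3/S and was 2.69-fold lower (-1.43 ± 0.09, adjusted p = 3.2e-07). B3GNT5, which starts the lacto-series of glycolipids, also had probe sets in both directions: those at 10.68 and 9.21 in PC-3/Mc were higher, by 0.39 ± 0.09 and 0.63 ± 0.08, and one at 5.87 ± 0.28 in PC-3/Mc against 6.69 ± 0.08 in PC-3/S was lower (-0.81 ± 0.13). As the mean of the 3 it was not called (0.07, adjusted p = 0.537). B3GNT2, the main enzyme of poly-N-acetyllactosamine, read 6.92 ± 0.17 in PC-3/Mc against 7.38 ± 0.27 in PC-3/S with overlapping arrays (-0.47 ± 0.14, adjusted p = 0.0157), and its 2 dimmer probe sets were not called (-0.16 each); the call was lost without replicate 3 of either line or PC-3/S replicate 1 (-0.37 to -0.40, adjusted p = 0.0524 to 0.0661) and without variance moderation (adjusted p = 0.131). B3GNT4, the core 3 enzyme B3GNT6 and B3GNT8 were not called. In the B3GALT family the proteoglycan linker enzyme B3GALT6 read 10.01, 10.02 and 10.10 in PC-3/Mc against 10.84, 10.92 and 11.03 in PC-3/S and was 1.84-fold lower (-0.88 ± 0.08, adjusted p = 5.6e-06). The GM1 synthase gene B3GALT4 was dim and lower (-0.48 ± 0.08), and B3GALT1, B3GALT2 and B3GALT5 lay at or under 5.18 in both lines and were not called.

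**Figure D3:**
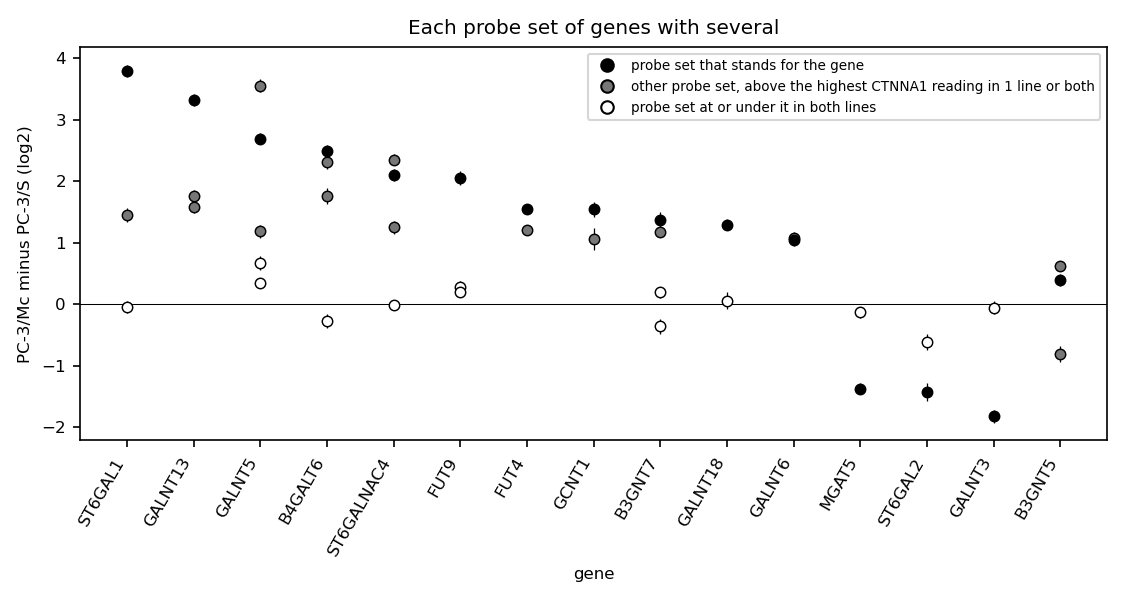
Difference between the lines (log2, with SE bars) for each probe set of the 14 genes with at least 2-fold difference and more than 1 probe set, and of B3GNT5; black points are the probe sets that stand for the gene, grey ones others above the highest CTNNA1 reading in 1 line or both, and white ones those at or under it in both. Grey points lie on the same side of 0 as the black one except for B3GNT5.

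Of the 60 genes with several probe sets, 2 (B3GNT5 and B3GNT7) had probe sets called in both directions in the fit over all 54613 probe sets other than controls. In that fit 85 of the 202 member probe sets were called, or 42.1%, where 35.9% of all probe sets were. Of the 19 genes with at least 2-fold difference 5 had a single probe set, and 10 of the other 14 had another probe set called in the same direction.

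MGAT1, MGAT2, MGAT5 and the dim MGAT5B, enzymes of N-glycan or O-mannose branching, were lower in PC-3/Mc, and the other 5 of the 9 MGAT genes were not called. The called share of 44.4% was close to the 45.9% of all genes, of which 22.7% were lower. The median was -0.21; in limma 0 were higher, also at an unadjusted p under 0.05 and without moderation, where 5 and 3 were lower. MGAT5, which opens the branch on which long poly-N-acetyllactosamine chains are built and galectins bind, read 9.06, 8.94 and 9.0 in PC-3/Mc against 10.46, 10.38 and 10.30 in PC-3/S. It was 2.60-fold lower (-1.38 ± 0.08, adjusted p = 1.7e-07), and its other probe set, at or under 5.18 in both lines, was not called (-0.13 ± 0.09). MGAT1, which commits N-glycans to the hybrid and complex types, read 7.71, 7.74 and 7.88 in PC-3/Mc against 8.56, 8.43 and 8.53 in PC-3/S and was 1.66-fold lower (-0.73 ± 0.08, adjusted p = 2.7e-05). MGAT2, which starts the second antenna, read 9.61, 9.75 and 9.45 in PC-3/Mc against 10.10, 10.01 and 10.24 in PC-3/S, a difference of -0.51 ± 0.10 (adjusted p = 0.0013); a dimmer probe set of the 3 was not called (-0.05 ± 0.13). For these 3 genes every PC-3/Mc array read below every PC-3/S array.

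MGAT4B, an enzyme of the third antenna, was not called (-0.21 ± 0.09, adjusted p = 0.0941), although its arrays did not overlap. It was called lower with quantile normalization (-0.29, adjusted p = 0.0121) and as the mean of its probe sets (-0.22, adjusted p = 0.0237). The trend and robust options of limma also made it a call (adjusted p = 0.0152). Its dimmer probe set was called lower in the limma fit over probe sets (-0.24 ± 0.08, adjusted p = 0.0419). Its paralog MGAT4A stood at 4.22 ± 0.27 in PC-3/Mc against 4.22 ± 0.07 in PC-3/S and MGAT3, which adds the bisecting residue, at 5.39 ± 0.17 in PC-3/Mc against 5.31 ± 0.14 in PC-3/S, and neither was called. MGAT4C and MGAT4D were at readings under 5.18 and not called. MGAT5B, a brain enzyme, was dim and called lower (-0.35 ± 0.10, adjusted p = 0.0119), a call lost without PC-3/S replicate 1 (-0.31, adjusted p = 0.0556) and without variance moderation (adjusted p = 0.0653). With probe sets named _x_at or _s_at set aside, MGAT1 and MGAT2 have no probe set and MGAT5B, then read on another one, was not called (-0.02, adjusted p = 0.917), so that MGAT5 was the 1 gene called lower.

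Of the mannosidases that trim N-glycans for these enzymes, 5 were called lower and MAN1B1 was not called, where 22.7% of all genes were lower. MAN2A1, which acts between MGAT1 and MGAT2, read 8.83, 8.78 and 8.69 in PC-3/Mc against 10.46, 10.46 and 10.45 in PC-3/S and was 3.23-fold lower (-1.69 ± 0.08, adjusted p = 2.2e-08). MAN1A1, which acts before MGAT1, read 7.78, 8.14 and 7.86 in PC-3/Mc against 9.04, 9.02 and 9.13 in PC-3/S and was 2.20-fold lower (-1.14 ± 0.10, adjusted p = 4.1e-06). MAN1A2 (-0.53), MAN2A2 (-0.37), glucosidase II (GANAB, -0.61) and, at readings under 5.18, MAN1C1 (-0.29) were lower too, MAN1B1 was at 8.14 ± 0.12 in PC-3/Mc against 7.95 ± 0.03 in PC-3/S (0.20 ± 0.08, adjusted p = 0.0827), and MOGS was not called. These were chosen after their values were seen. In the whole list of N-glycan assembly and trimming 13 of 27 measured genes were lower, 7 higher and 7 not called, with a median of -0.09. The called share was 74.1%, beside 45.9% of all genes and 64.2% of all genes above 5.18 in 1 line or both. The largest upward difference was that of ALG10 (1.24 ± 0.15), which adds the last glucose of the lipid-linked precursor.

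**Figure D4:**
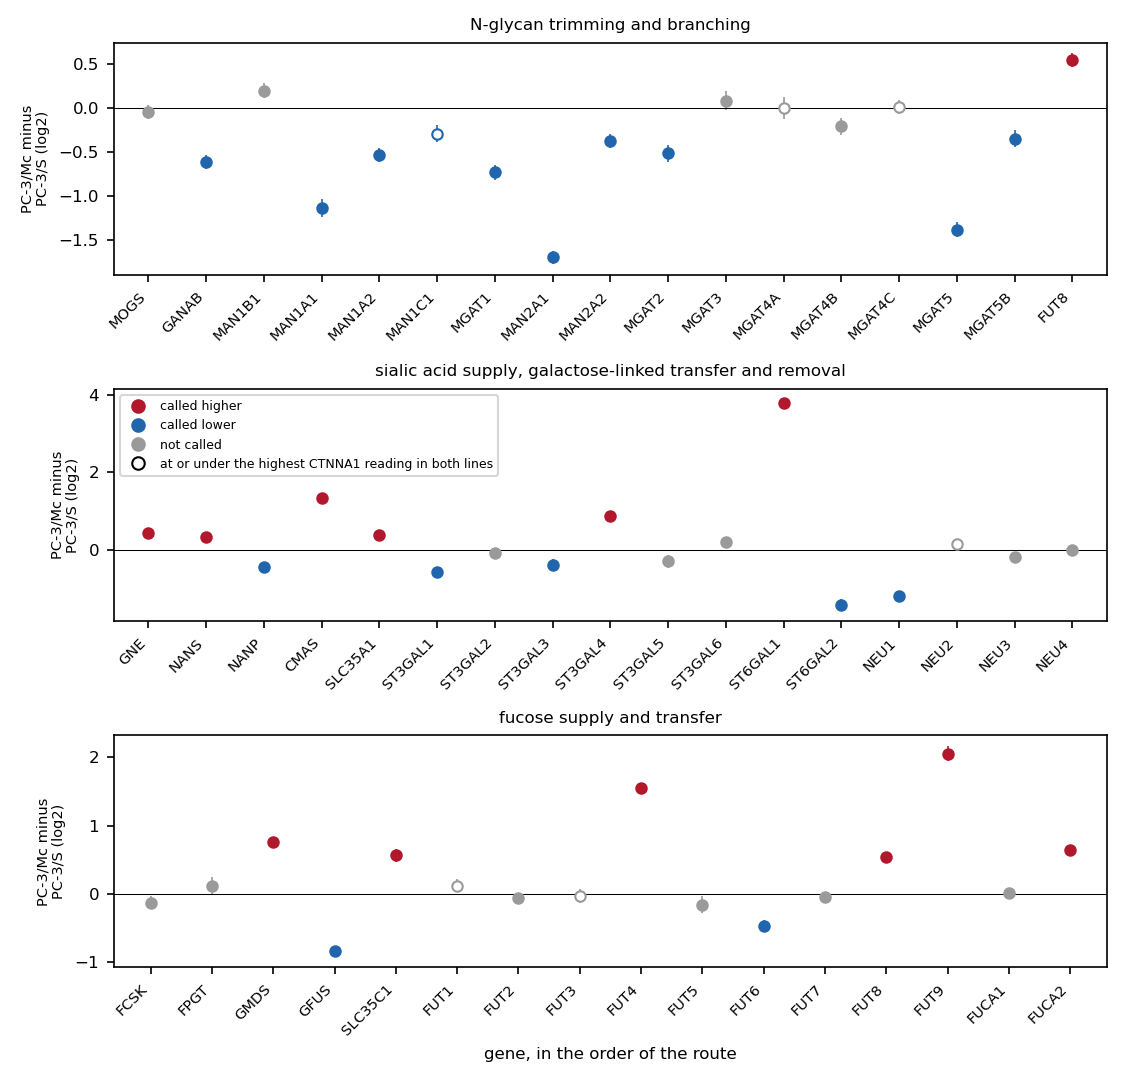
Difference between the lines (log2, points with SE bars) for genes along the N-glycan, sialic acid and fucose routes, in the order of the route; red is called higher and blue called lower in PC-3/Mc, grey is not called, and open points lie at or under the highest CTNNA1 reading in both lines. In the N-glycan panel the trimming and branching genes that were called all lie below 0 and FUT8 lies above it, and in the sialic acid panel ST6GAL1 and ST6GAL2 lie on opposite sides.

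Other enzymes and readers of glycans were given for context. Of 19 measured sulfotransferases and O-fucose, O-glucose and O-GlcNAc transferases 4 were higher, 3 lower and 12 not called (median -0.04). Among them POFUT2, which puts O-fucose on thrombospondin repeats, was 2.67-fold lower (-1.42 ± 0.09), and LFNG, which extends O-fucose on Notch receptors, was at least 2.01-fold higher (1.25 ± 0.08). Of 17 measured genes in a list of lectins 1 was higher, 5 lower and 11 not called (median -0.07), and with quantile normalization 2 were higher. The higher one, LGALS3BP (0.46), is in that list although it codes for a galectin-binding protein and not a lectin. CLEC7A (-0.37) was called lower at readings under 5.18. Calls made up 36.8% of the sulfotransferase list and 35.3% of the lectin list, where 45.9% of all genes were called. Galectin-1 (LGALS1), a galactose-binding lectin, read 11.56, 11.58 and 11.69 in PC-3/Mc against 12.65, 12.62 and 12.60 in PC-3/S and was 2.02-fold lower (-1.02 ± 0.08, adjusted p = 1.1e-06).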

How the data were processed

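The starting point was the table of log2 expression values that the authors deposited for 54675 probe sets on 6 arrays; the scale was settled from the values (2.59 to 14.45). Its software, background correction and scaling method were not given in the sources used here, so each difference is relative to the other probe sets of an array. Arrays were grouped by title. The platform annotation gave 41091 probe sets 1 symbol, 1801 several and 11721 none; 62 controls were left out. For each of 19775 genes the probe set brightest on average was kept, and the lines were compared by two-sided limma tests without covariates (version 3.58.1, R 4.3.3), checked on simulated data. All 86 member symbols were in the RefSeq table of GRCh38.p14, which gave classes, chromosomes and promoters. Values of every array are given for called members of at least 2-fold difference and, for context, some others; anchor genes are given whatever their values, and up to 4 called genes of at least 2-fold per direction in each other list. The median SE of a difference was 0.092, and the number of arrays limits the precision. Members and lists were chosen with earlier results of these data known. Alternatives covered probe-set choice, a filter on mean level, scaling, variance moderation, the replicate number and leaving out each array.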

Additional observations from a re-analysis of the deposited data

How the results depend on the processing

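Of the 43 called genes 31 kept their call and direction under each alternative that could be run on them, and 36 kept it whichever array was left out; 8 of the 43 uncalled genes became calls under at least 1 alternative. Direction was reversed for 1 called gene: ST6GALNAC4 differed by -0.016 with probe sets named _x_at or _s_at set aside, which leaves it only a probe set under 5.18 in both lines. Other genes of at least 2-fold difference kept their call but fell under 2-fold in some alternative. They were B3GNT7 (0.60), GALNT18 (0.67), MGAT5 (-0.75), FUT9 (0.85), GCNT3 (0.86), GALNT3 (-0.94) and GALNT6 (0.96). Counted as probe sets with 1 symbol, calls numbered 50 higher and 37 lower over all members, 20 and 5 for GALNT, 5 higher for GCNT, 8 and 13 for sialyltransferases, 5 and 5 for FUT and 11 and 8 for B3GNT, B3GALT and B4GALT; more features were counted. As means over probe sets FUT had 0 genes lower, and with probe sets named _x_at or _s_at set aside MGAT had 1 lower. Class medians moved most where genes under the 40th percentile of mean level were left out before the fit, to 0.46 for GALNT, 1.05 for GCNT, 0.15 for B3GNT, B3GALT and B4GALT and -0.43 for MGAT; that of sialyltransferases was -0.02 as means over probe sets, and that of MGAT -0.02 with probe sets named _x_at or _s_at set aside. Leaving out 1 array gave 23 to 26 higher and 15 to 18 lower over all members, 7 to 8 higher for GALNT, 3 to 4 higher and 3 to 6 lower for sialyltransferases, 6 to 8 higher and 4 to 6 lower for B3GNT, B3GALT and B4GALT and 3 to 4 lower for MGAT. Same-numbered arrays of the lines do not deviate together (correlations of -0.02, -0.26 and -0.38), so the numbers do not pair them; with the number as a replicate block, the calls of GALNT12 (adjusted p = 0.0865), ST3GAL3 (0.0886), B3GNT2 (0.0513), B4GALT1 (0.0903) and ST8SIA3 (0.102) were lost, sialyltransferases had 3 genes lower, and the other class counts stayed within 1.5 times the values reported. Without a floor the lower bounds would read 13.9 for ST6GAL1, 9.98 for GALNT13, 5.62 for B4GALT6, 4.16 for FUT9, 2.91 for GCNT1, 2.69 for ST6GAL2 and 2.60 for B3GNT7. Detection calls were not used, so the signal over background limits what can be said of genes near 5.18.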

Other observations

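GALNT4 is not among the members, since its 2 probe sets carry both its own symbol and that of the POC1B-GALNT4 readthrough transcript, and the signals of the pair cannot be told apart. In the fit over all probe sets other than controls both were higher in PC-3/Mc. One read 7.16, 7.13 and 7.11 in PC-3/Mc and 5.81, 5.58 and 5.76 in PC-3/S, a difference of 1.42 ± 0.09 (adjusted p = 1.2e-07). The other read 8.02, 8.38 and 8.04 against 7.13, 7.14 and 7.29, a difference of 0.96 ± 0.11 (adjusted p = 2.0e-05). A probe set that carries both GALNT8 and KCNA6 lay under 5.18 in both lines and was not called (-0.06 ± 0.11).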
